A study of Saccharomyces cerevisiae with 10 samples.

Results

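The 32 genes described here carry sulfate into methionine and cysteine in *Saccharomyces cerevisiae*, or move and regulate these compounds. They were chosen by systematic gene name: the *MET*, *CYS*, *STR* and *SAM* genes of the pathway, the permease genes *SUL1*, *SUL2*, *MUP1*, *MUP3*, *SAM3* and *YCT1*, and the regulator genes *MET4*, *MET28*, *MET30*, *MET31*, *MET32* and *CBF1*. All 32 are among the 6607 genes of the deposited count table, and all 32 passed the filter on low counts that left 5856 genes for testing. RNA-seq was done on 10 cultures of one haploid background in which the chromosomal *SUP35* gene, coding for the termination factor eRF3, is replaced by a HIS3MX cassette, so that *SUP35* comes from a plasmid alone. Every culture is MATa and also carries ade1-14, trp1-289, his3-d200, lys2, ura3-52 and leu2 with mutations 3 and 112. The 3 *sup35-218* cultures (strain 218-L-14-D1690) had the nonsense allele *sup35-218* on a *LEU2* plasmid (pRSU1-218), the 4 *SUP35 LEU2* cultures (L-14-D1690) had the wild-type allele on a *LEU2* plasmid, and the 3 *SUP35 URA3* cultures (U-14-D1690) were the initial strain with the wild-type allele on a *URA3* plasmid. The first 2 groups had passed through plasmid shuffling on 5-FOA medium (stage 3 of the experiment), and the initial strain had not (stage 1). The labels name SC as the medium of all cultures, while the methods of the study name SC without uracil or without leucine for RNA cultures. By the recipe in those methods, SC supplies methionine. The plasmid label of both *SUP35* groups is pRSU2, while the methods name pRSU1 for shuffling to the *LEU2* marker. Whether the cultures of a group came from separate clones is not given in the sources used here. Marker, dropout medium and stage changed together between the *SUP35* groups and cannot be told apart.

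Gene counts summed to 3044096 to 4861009 per culture. The marker of the initial strain followed the labels, with *URA3* at 59.2 to 94.4 CPM in the 7 cultures with a *LEU2* plasmid, against 829, 882 and 1091 CPM in *SUP35 URA3* cultures. *SUP35* had 2185, 1833 and 1919 CPM in *sup35-218* cultures, 809, 546, 505 and 547 CPM in *SUP35 LEU2* cultures and 406, 421 and 481 CPM in *SUP35 URA3* cultures. The gene counts do not show which allele was read. *LEU2*, the plasmid marker, was also higher in *sup35-218* cultures than in *SUP35 LEU2* cultures (log2FC 1.53, adjusted p = 2.01e-05, edgeR). It had 1853, 1589 and 1434 CPM in *SUP35 URA3* cultures, overlapping the 1733 to 2743 CPM of *SUP35 LEU2* cultures. Between these groups *LEU2* was called higher in *SUP35 LEU2* cultures (log2FC 0.57, adjusted p = 0.0252, edgeR). The *LEU2* counts thus did not separate every culture of the *SUP35* groups by plasmid. The part of plasmid content in the results was not tested. CPM here are counts scaled to the TMM-normalized library size of a culture, so each value is a share of its RNA. In such bulk RNA, a lower level in every cell and fewer expressing cells cannot be told apart.

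Yeast takes up sulfate through the permeases Sul1 and Sul2, activates it with Met3 and Met14, and reduces it with Met16 to sulfite and with the siroheme enzyme Met5-Met10 to sulfide. Met17 joins sulfide to a homoserine ester made by Met2, which gives homocysteine, the branch point to methionine by Met6 and to cysteine by Cys4 and Cys3. The pathway is switched as a unit by the activator Met4, which cannot bind DNA by itself and is brought to promoters by Cbf1 or by Met31 and Met32, with Met28 as cofactor. When methionine and cysteine are plentiful, the ubiquitin ligase subunit Met30 holds Met4 inactive and the genes are low.

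The binding sites of these factors are visible in the reference sequence, and the stretches below are shown as examples of how they stand before genes of the sulfate branch, *MET17*, *CYS3* and 2 regulator genes. Of these, *MET17*, *MET32* and *MET30* were not called by edgeR with all cultures. The R64 genome sequence of S288C was searched over 500 bases before each coding start, on both strands, for CACGTG (Cbf1), CTGTGG (core of the Met31 and Met32 site) and TGACTC (Gcn4, the general activator of amino acid synthesis). Matches are in capitals and appear as CCACAG where CTGTGG lies on the other strand, and each stretch reads toward the gene. Of the 32 genes, 21 (65.6%) had CACGTG, against 6.07% of the 6574 windows of all genes. CTGTGG was found before 19 (59.4%, against 13.7% of all windows) and TGACTC before 11 (34.4%, against 13.2%). Both CACGTG and CTGTGG stood before 11 genes (34.4%, against 0.897% of all windows). In the printed stretches no 2 matches overlap.
*MET3*: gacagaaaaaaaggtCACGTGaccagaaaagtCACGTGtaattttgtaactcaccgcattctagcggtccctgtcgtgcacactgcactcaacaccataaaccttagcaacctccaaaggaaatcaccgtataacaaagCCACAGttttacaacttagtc
*MET14*: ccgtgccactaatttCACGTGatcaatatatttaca
*SUL2*: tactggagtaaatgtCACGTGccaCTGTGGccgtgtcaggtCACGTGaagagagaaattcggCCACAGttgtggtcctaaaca
*MET10*: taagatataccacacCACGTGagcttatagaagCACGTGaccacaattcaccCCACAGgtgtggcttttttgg
*MET16*: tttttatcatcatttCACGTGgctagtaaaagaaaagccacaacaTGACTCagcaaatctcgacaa
*MET17*: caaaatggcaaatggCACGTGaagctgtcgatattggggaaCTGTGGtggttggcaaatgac
*CYS3*: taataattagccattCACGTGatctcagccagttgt
*MET32*: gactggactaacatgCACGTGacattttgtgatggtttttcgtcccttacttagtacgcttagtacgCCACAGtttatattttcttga
*MET30*: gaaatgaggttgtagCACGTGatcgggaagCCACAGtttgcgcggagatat

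*MET3* (chrX:455847-456006, forward strand), *MET10* (chrVI:213048-213120, forward strand) and *SUL2* (chrXII:323195-323277, forward strand) had a pair of CACGTG matches with at least 1 CTGTGG match nearby. A single CACGTG stood before *MET14* (chrXI:439593-439628, reverse strand) and *CYS3* (chrI:130568-130603, forward strand). *MET16* (chrXVI:877760-877825, reverse strand) had CACGTG and TGACTC, and CACGTG was paired with CTGTGG before *MET17* (chrXII:732227-732288, forward strand), *MET32* (chrIV:964871-964958, reverse strand) and *MET30* (chrIX:268459-268509, forward strand), the last of which codes for the inhibitor of the activator. None of the 3 motifs was found in the windows of *SAM4* and *YCT1*, and *STR2*, *SAM3*, *MET13* and *MUP1*, all called below, had no CACGTG. These are letter matches in a window, which can reach into a neighbouring gene, and not measured binding.

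**Figure D1:**
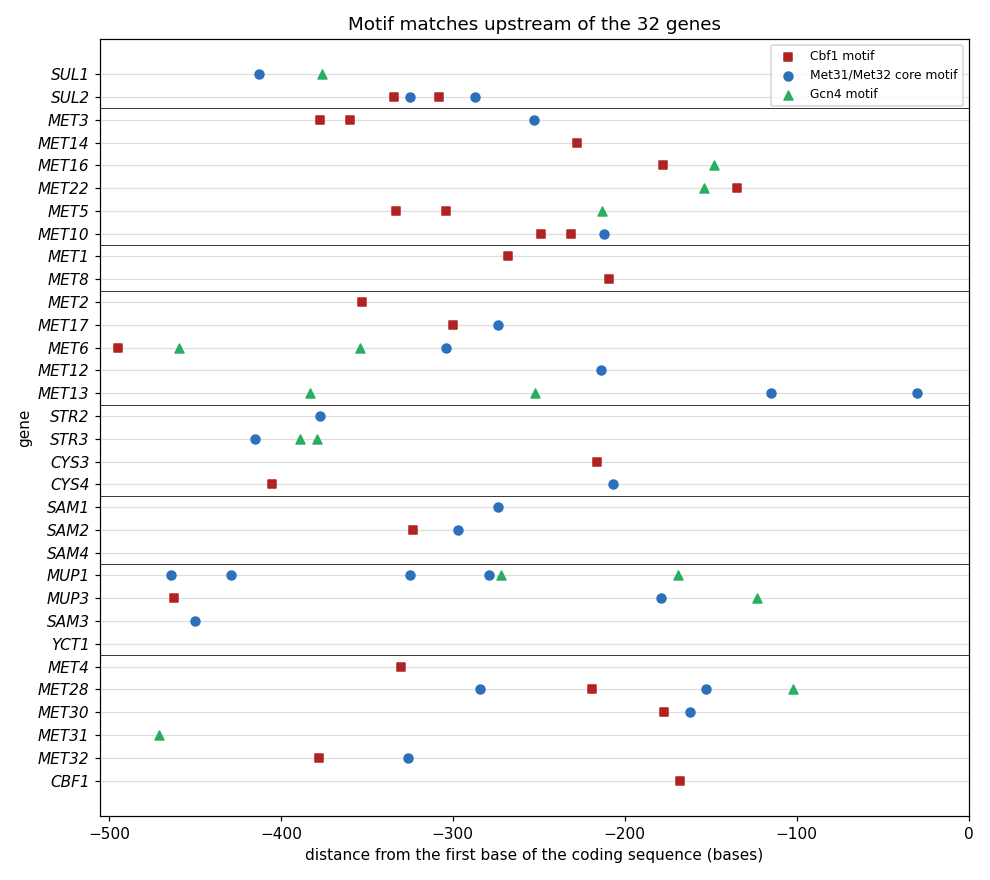
Matches to the Cbf1 motif (squares), the Met31/Met32 core motif (circles) and the Gcn4 motif (triangles) upstream of the 32 genes. The x axis is the distance in bases from the first coding base and rows are genes, with lines between role groups. The Cbf1 motif occurs before 21 genes, with its nearest match 135 to 495 bases from the start.

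Levels per length were spread widely. In *SUP35 LEU2* cultures the mean CPM per kilobase of gene (RPKM) was highest for *MET6*, the methionine synthase gene (1305 RPKM), *SAM2* (1128 RPKM) and *MET17* (836 RPKM). It was lowest for *MET28* (5.12 RPKM), *CBF1* (25.8 RPKM) and the permease gene *MUP3* (29.3 RPKM). *MET14* stood at 1636 RPKM in *sup35-218* cultures, above *MET6* at 1236 RPKM in the same cultures, although its cultures ranged from 302 to 1489.9 CPM.

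**Figure D2:**
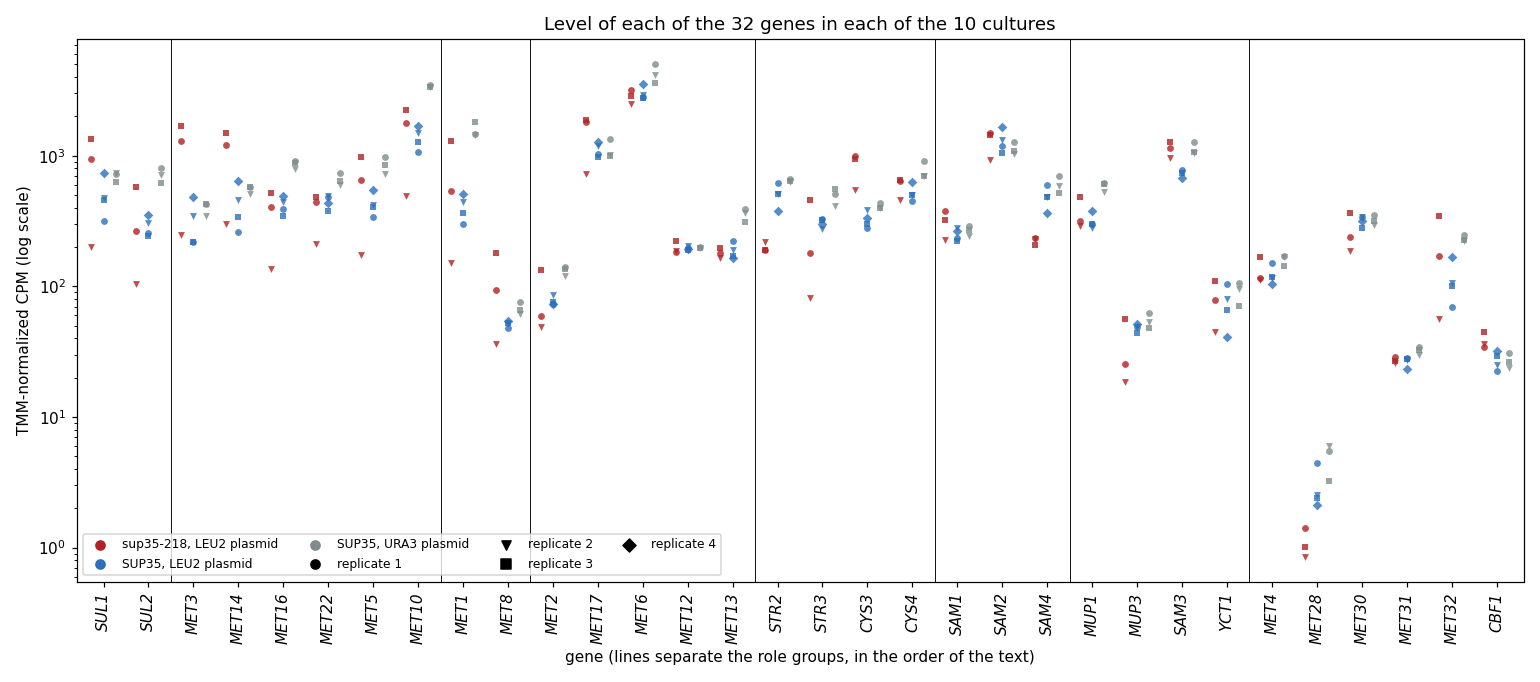
TMM-normalized CPM (log scale) of each of the 32 genes in each culture, with *sup35-218* cultures left, *SUP35 LEU2* cultures in the middle and *SUP35 URA3* cultures right. Marker shapes give the replicate number. For *MET3*, replicate 2 of the *sup35-218* cultures is at 247 CPM and the other 2 are at 1294 and 1690.1 CPM.

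Before the comparisons, the cultures of one group were set against each other, because the *sup35-218* cultures did not form a tight group for these genes. Replicate 2 was the lowest of the 3 *sup35-218* cultures for 28 of the 32 genes, and replicate 3 was the highest for 24. Over all 5856 genes tested, replicate 2 was lowest for 27.9% and replicate 3 highest for 38.5%. An ordering of cultures was also seen in *SUP35 URA3* cultures, but with smaller differences. There replicate 1 was highest for 27 of the 32 genes (38.5% of all genes) and replicate 2 lowest for 20 (22.5%). Their median differences from the group mean were 0.13 and -0.11 on the log2 scale, against -0.56 and 0.45 in replicates 2 and 3 of *sup35-218*. The summed level of the 32 genes was 19302, 10085 and 23175 CPM in *sup35-218* cultures, against 13545, 15032, 13353 and 16893 CPM in *SUP35 LEU2* cultures and 25033, 21592 and 21812 CPM in *SUP35 URA3* cultures. Replicate 2 of *sup35-218* thus lay below every *SUP35* culture, and replicates 1 and 3 above every *SUP35 LEU2* culture.

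Against the mean of replicates 1 and 3, replicate 2 was lower by the largest factors for the siroheme gene *MET1* (6.12-fold), *MET3* (6.04-fold), *SUL1* (5.78-fold), the sulfite reductase gene *MET5* (4.74-fold), *MET32* (4.56-fold) and *MET14* (4.46-fold). The gap was small for *MET6* (1.21-fold), *MET13* (1.15-fold) and *MET12* (1.08-fold), which code for the methionine synthase and the folate reductases that serve it, and for the regulator genes *CBF1* (1.08-fold) and *MET31* (1.07-fold). *STR2* and *SAM4* were slightly higher in replicate 2 than in the mean of the other 2. Of the 21 genes with CACGTG, 12 were at least 2-fold lower in replicate 2 by this measure (median 2.18-fold), and 3 of the 11 without it were (median 1.27-fold). The split by CTGTGG ran the other way, with 8 of 19 genes that had it (median 1.58-fold) and 7 of 13 that did not (median 2.12-fold). For TGACTC the numbers were 6 of 11 with it (median 2.18-fold) and 9 of 21 without (median 1.78-fold). Among 5375 genes with a mean of at least 50 counts, only 28 were at least 2-fold below both other *sup35-218* cultures in replicate 2, and 13 of these were among the 31 genes described here that reach that mean. In replicate 3, 6 genes were at least 2-fold above both other cultures, and 5 of them were *SUL2*, *MET1*, *MET2*, *STR3* and *MUP3*. None of the 31 stood apart in this way in any *SUP35* culture or in replicate 1. These counts and the split by motif were chosen after the values had been seen.

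The median SD of log2(CPM + 1) between cultures was 0.57 over the 32 genes in *sup35-218* cultures, against 0.21 in *SUP35 LEU2* and 0.16 in *SUP35 URA3* cultures. Over all genes tested it was 0.13, 0.17 and 0.14 for the same groups in that order. Replicate 2 did not stand apart in depth (3523280 counts, against 3509049 and 4024015 in replicates 1 and 3) or in its TMM factor (1.003). It was the lowest of the 3 for *LEU2*, at 6454 CPM against 7221 and 7194 CPM. For *SUP35* it was also the lowest, at 1833 CPM against 2185 and 1919 CPM. Whether plasmid content has a part in its lower levels was not tested. Calls of *sup35-218* that changed without replicate 2 are named beside the results.

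**Figure D3:**
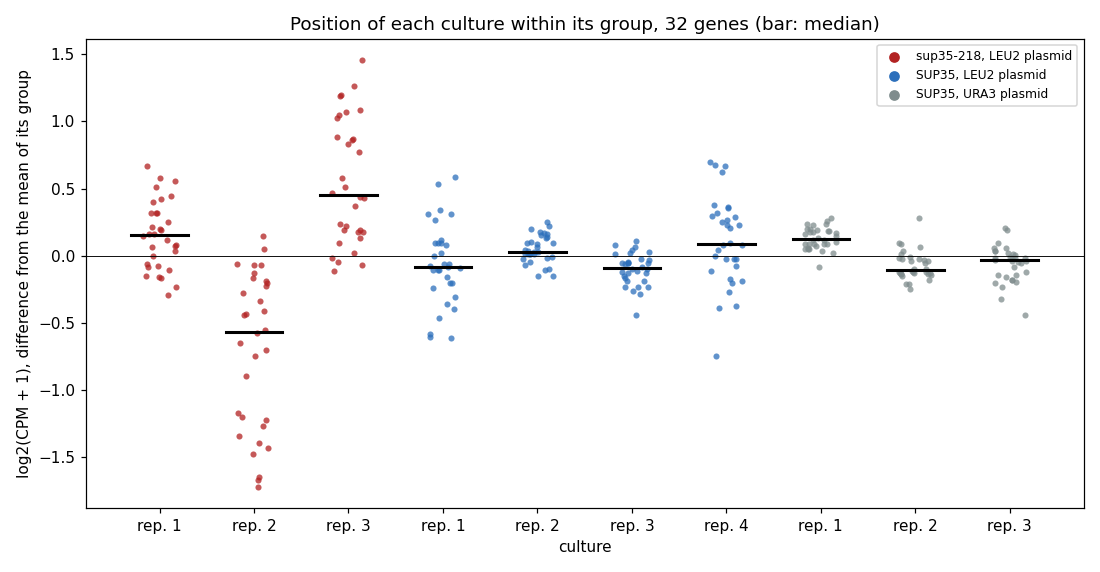
Difference of log2(CPM + 1) from the mean of its own group for the 32 genes (points) in each of the 10 cultures, with the median as a bar. Replicate 2 of the *sup35-218* cultures has a median of -0.56 and replicate 3 a median of 0.45. Medians in *SUP35* cultures lie between -0.11 and 0.13.

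The effect of the allele is addressed by *sup35-218* against *SUP35 LEU2* cultures, which share marker, medium and stage. A gene was called when its adjusted p was under 0.05 and its log2FC above 0.5 in size, the limits used by the study. Of the 32 genes 5 were called higher, namely *MET3*, *MET14*, *MET8*, *CYS3* and *SAM3*, and 3 lower, namely *STR2*, *SAM4* and *MET28*. That is 25.0% of the 32 genes, while 23.3% of all genes tested were called (10.7% higher and 12.6% lower), so the share was close to the background. The median log2FC was 0.11 over the 32 genes and -0.01 over all genes. Without replicate 2 of *sup35-218*, 13 of the 32 genes were called higher and 2 lower, beside 1354 of 5894 genes in either direction. The median was then 0.38, against 0.02 over all genes. Leaving out replicate 3 instead gave 3 higher and 5 lower, beside 1196 of 5892 genes in either direction. The median was -0.06, against 0.02 over all genes. The genes then called lower included *STR3* (log2FC -1.20, adjusted p = 0.00351, edgeR), *MUP3* (log2FC -1.09, adjusted p = 0.00056, edgeR) and *MET30* (log2FC -0.54, adjusted p = 0.0106, edgeR), which were not called with all cultures.

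In the sulfate branch, *MET3* (YJR010W, chromosome X, 456239 to 457774), coding for ATP sulfurylase, had 1294, 247 and 1690.1 CPM in *sup35-218* cultures, against 217, 344, 220.3 and 486 CPM in *SUP35 LEU2* cultures. Its log2FC was the largest of the 32 (log2FC 1.77, standard error 0.45, adjusted p = 0.00675, edgeR), and replicate 2 of *sup35-218* lay within the range of the *SUP35* cultures. *MET14*, the next enzyme of sulfate activation, had 1198, 302 and 1489.9 CPM against 262, 456, 342 and 639 CPM (log2FC 1.23, standard error 0.39, adjusted p = 0.0228, edgeR). Here too the groups overlapped only through replicate 2. *MET8*, which codes for an enzyme of siroheme synthesis, had 94.4, 35.9 and 180.4 CPM in *sup35-218* cultures, against 47.9, 51.3, 52.5 and 54.7 CPM in *SUP35 LEU2* cultures (log2FC 1.01, standard error 0.34, adjusted p = 0.0299, edgeR), with replicate 2 below and replicates 1 and 3 above every *SUP35 LEU2* culture. Without replicate 2 the differences were larger for *MET3* (log2FC 2.28, adjusted p = 6.31e-05, edgeR), *MET14* (log2FC 1.70, adjusted p = 0.000352, edgeR) and *MET8* (log2FC 1.46, adjusted p = 0.0002, edgeR). Without replicate 3, *MET14* (log2FC 0.85, adjusted p = 0.129, edgeR) and *MET8* (log2FC 0.37, adjusted p = 0.305, edgeR) were not called, while *MET3* was (log2FC 1.32, adjusted p = 0.045, edgeR). The call of *MET14* was also lost without replicate 1 of *sup35-218* or replicate 3 of *SUP35 LEU2*, that of *MET8* without any of replicates 1, 2 and 3 of *SUP35 LEU2*, and both under DESeq2. No gene of the sulfate branch had groups that did not overlap, a separation seen for 43.7% of all genes tested and for 6 of the 32.

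The remaining sulfate genes were not called with all cultures. *SUL1*, a sulfate permease gene, had 949, 199 and 1347 CPM against 316, 477, 457 and 733 CPM (log2FC 0.75, adjusted p = 0.182, edgeR), and *MET1* had 540.3, 151 and 1301 CPM against 300.3, 442, 365 and 507 CPM (log2FC 0.72, adjusted p = 0.222, edgeR). In both genes replicate 2 of *sup35-218* lay under every *SUP35 LEU2* culture and the other 2 lay over them. Without it *SUL1* (log2FC 1.25, adjusted p = 0.00203, edgeR), *MET1* (log2FC 1.23, adjusted p = 0.00471, edgeR), *MET5* (log2FC 0.99, adjusted p = 0.00241, edgeR) and *MET10* (log2FC 0.58, adjusted p = 0.0276, edgeR) were called higher. *MET16*, the reductase gene between activation and sulfite, was not (log2FC 0.18, adjusted p = 0.415, edgeR), nor were *MET22* (log2FC 0.09, adjusted p = 0.651, edgeR), whose product removes a by-product of that step, and *SUL2* (log2FC 0.60, adjusted p = 0.0751, edgeR).

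In transsulfuration, 1 gene of each direction was called, with opposite signs. *CYS3* (YAL012W, chromosome I, 130799 to 131983), for the lyase that yields cysteine, had 994, 542 and 940.3 CPM in *sup35-218* cultures, against 279, 383, 299.7 and 331 CPM in *SUP35 LEU2* cultures (log2FC 1.35, standard error 0.18, adjusted p = 7.81e-05, edgeR). All *sup35-218* cultures lay above all *SUP35 LEU2* cultures, replicate 2 included. *STR2* (YJR130C, chromosome X, 665218 to 667137), for the enzyme that begins the route from cysteine back to homocysteine, had 188, 219 and 189 CPM against 616, 511, 512 and 378 CPM (log2FC -1.34, standard error 0.15, adjusted p = 1.98e-05, edgeR), and again the groups did not overlap. The *sup35-218* cultures were close together for *STR2*, with a mean of 199 ± 17.8 CPM (SD, n = 3), while the *SUP35 LEU2* cultures averaged 504 ± 97.3 CPM (SD, n = 4). *CYS4* (log2FC 0.17, adjusted p = 0.404, edgeR) and *STR3* (log2FC -0.36, adjusted p = 0.467, edgeR), the partner genes in each direction, were not called with all cultures. *STR3* followed the sulfate genes among *sup35-218* cultures, with 181, 81.5 and 456 CPM, against 328, 276, 325 and 302 CPM in *SUP35 LEU2* cultures.

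A pair of neighbouring genes also diverged. *SAM3* and *SAM4* lie on the same strand of chromosome XVI, 385 bases apart, and code for the S-adenosylmethionine permease and for a methyltransferase that makes methionine from homocysteine and S-adenosylmethionine. *SAM3* had 1141, 954 and 1275 CPM in *sup35-218* cultures, against 776, 742, 741 and 679 CPM in *SUP35 LEU2* cultures (log2FC 0.61, standard error 0.13, adjusted p = 0.00186, edgeR). *SAM4* had 233, 231 and 206 CPM against 600.0, 479.9, 480.1 and 366 CPM (log2FC -1.11, standard error 0.16, adjusted p = 0.000142, edgeR). Neither gene had overlapping groups, so that *SAM3* was higher and *SAM4* lower in every *sup35-218* culture than in any *SUP35 LEU2* culture. The synthetase genes were not called, with *SAM1* at 0.30 and *SAM2* at -0.01 on the log2 scale. Without replicate 2 of *sup35-218*, *SAM1* was called higher (log2FC 0.52, adjusted p = 0.0078, edgeR). Their coding sequences are 82.8% identical, and reads shared by both cannot be assigned with certainty.

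The genes from homoserine to methionine, other than *MET17*, had log2FC close to 0 in this comparison. *MET2*, *MET6*, *MET12* and *MET13* had log2FC from -0.08 to 0.07, and none was called. For *MET2* this averages over cultures that differed. It had 59.4, 48.7 and 133 CPM in *sup35-218* cultures, against 73.5, 86.6, 75.5 and 72.7 CPM in *SUP35 LEU2* cultures. Its log2FC was 0.37 without replicate 2 of *sup35-218* (adjusted p = 0.233, edgeR). Without replicate 3 it was -0.48 (adjusted p = 0.0165, edgeR), inside the limit of 0.5. *MET12* had 182, 187 and 222 CPM in *sup35-218* cultures, against 195, 204, 189 and 192 CPM in *SUP35 LEU2* cultures (log2FC 0.01, adjusted p = 0.915, edgeR). *MET17* had 1806, 723 and 1865 CPM against 1031, 1180.5, 975 and 1279.6 CPM (log2FC 0.39, adjusted p = 0.236, edgeR) and was called higher only without replicate 2 among the alternatives run (log2FC 0.76, adjusted p = 0.00324, edgeR). Among the permeases of organic sulfur, the methionine permease gene *MUP1* (log2FC 0.21, adjusted p = 0.328, edgeR), its low-affinity counterpart *MUP3* (log2FC -0.51, adjusted p = 0.141, edgeR) and the cysteine transporter gene *YCT1* (log2FC 0.09, adjusted p = 0.827, edgeR) were not called with all cultures.

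**Figure D4:**
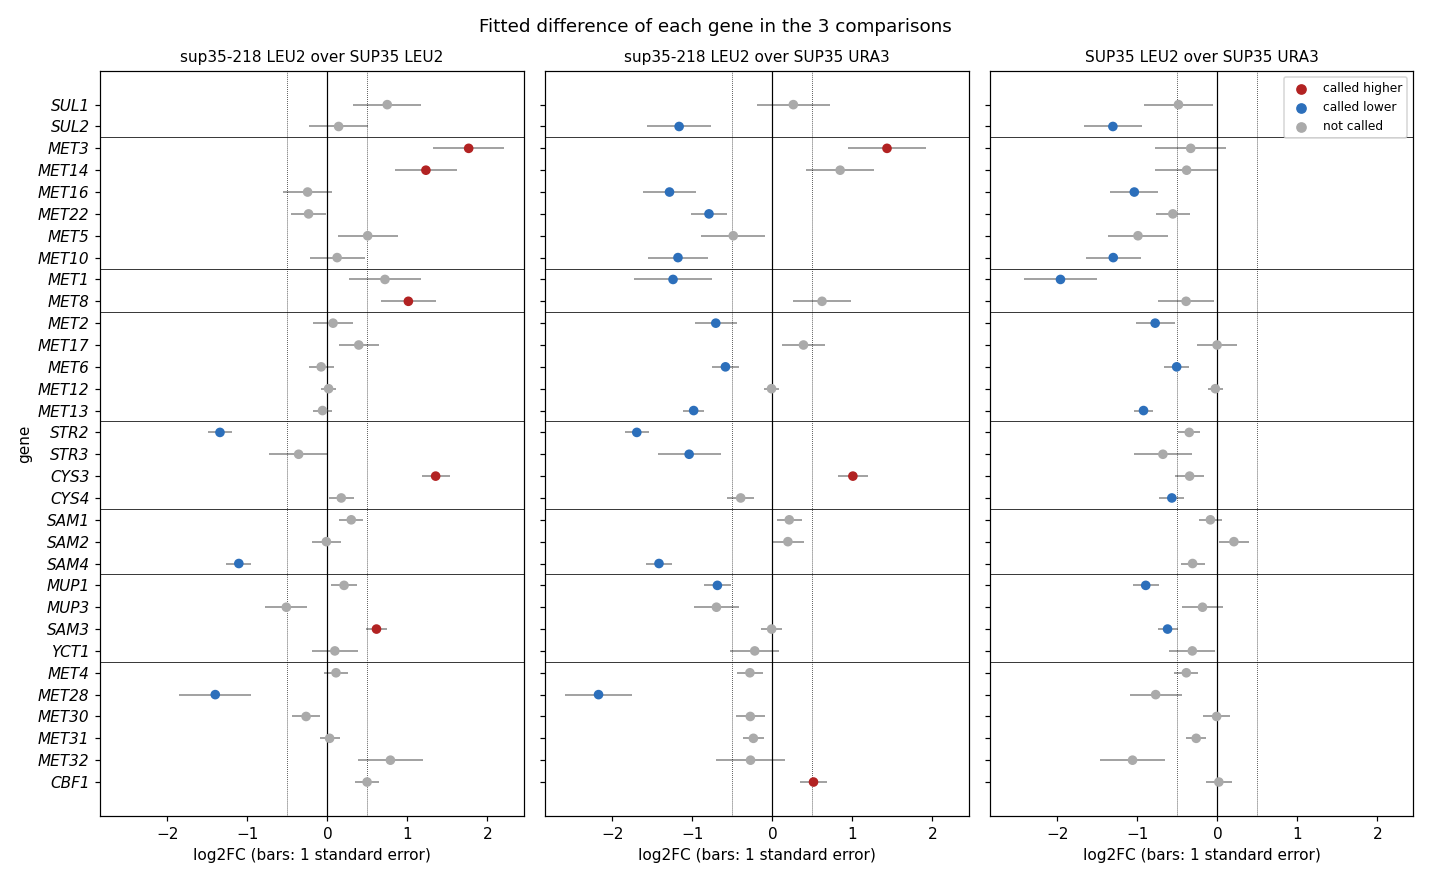
Fitted log2FC (x axis, bars are 1 standard error) of the 32 genes in the 3 comparisons, coloured by call, with dotted lines at the limit of 0.5. *CYS3* and *STR2* point in opposite directions in the left panel, and 30 of the 32 genes (27 with upper quartile scaling) lie left of 0 in the right panel. The middle and right panels share the *SUP35 URA3* cultures, and the left and middle panels share the *sup35-218* cultures.

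The regulators differed in how they varied. *MET32* had 172, 56.6 and 344 CPM in *sup35-218* cultures, 69.0, 106, 99.8 and 169 CPM in *SUP35 LEU2* cultures and 245, 223 and 226 CPM in *SUP35 URA3* cultures. It spread among *sup35-218* cultures as the sulfate genes did, was not called against *SUP35 LEU2* (log2FC 0.79, adjusted p = 0.144, edgeR), and was called higher without replicate 2 (log2FC 1.26, adjusted p = 0.00484, edgeR). Its relative *MET31*, which codes for a protein of the same site specificity, was called in no comparison by edgeR with all cultures and had 28.7, 26.0 and 26.8 CPM, 28.4, 27.1, 27.8 and 23.2 CPM and 34.2, 30.0 and 32.4 CPM for the same groups in that order.

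*MET4*, the activator gene, had 115, 112 and 167 CPM in *sup35-218* cultures, 149.9, 115, 118 and 105 CPM in *SUP35 LEU2* cultures and 169, 167 and 143 CPM in *SUP35 URA3* cultures, and was called in no comparison by edgeR with all cultures. *MET30* had 239.7, 188 and 362 CPM, 337, 338, 278 and 315 CPM and 349.9, 293 and 315 CPM in the same order of groups and was not called either, except lower in *sup35-218* against each *SUP35* group without replicate 3. *CBF1* had 34.1, 36.2 and 44.4 CPM in *sup35-218* cultures, above all of 22.7, 25.2, 29.2 and 31.8 CPM in *SUP35 LEU2* cultures and 30.8, 23.5 and 26.6 CPM in *SUP35 URA3* cultures. Its adjusted p passed the threshold against *SUP35 LEU2*, but its log2FC lay just inside the limit (log2FC 0.50, standard error 0.15, adjusted p = 0.0198, edgeR), and 8 of the 17 alternatives run called it. Against *SUP35 URA3* it was called higher (log2FC 0.51, standard error 0.16, adjusted p = 0.0201, edgeR), a call that 3 alternatives lost, among them the fits without replicate 3 of *sup35-218* or replicate 2 of *SUP35 URA3*.

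*MET28*, the cofactor gene, had the fewest counts of the 32 genes. It had 5, 3 and 4 counts in *sup35-218* cultures, 17, 8, 9 and 7 counts in *SUP35 LEU2* cultures and 18, 29 and 10 counts in *SUP35 URA3* cultures. It was called lower in *sup35-218* against *SUP35 LEU2* (log2FC -1.40, standard error 0.45, adjusted p = 0.0238, edgeR) and against *SUP35 URA3* (log2FC -2.17, standard error 0.42, adjusted p = 0.001, edgeR). The first call was lost without replicate 2 or 3 of *sup35-218* or replicate 1 of *SUP35 LEU2*. The open reading frame YIR017W-A overlaps 98.2% of *MET28* on the other strand, and the strand setting of the counting is not given in the sources used here, so reads of the pair cannot be told apart.

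The effect of the shuffling and the change of marker on cells with wild-type *SUP35* is addressed by *SUP35 LEU2* against *SUP35 URA3* cultures. Of the 32 genes 10 were called lower and 0 higher in *SUP35 LEU2* cultures by edgeR, while 6.63% of all genes tested were called lower and 7.21% higher. At an unadjusted p under 0.05 without a fold limit, 17 of the 32 were lower and 0 higher. The share of all genes at that limit was not counted. DESeq2 called 11 of the 32 lower and 0 higher, beside 823 of 6607 genes in either direction. Without replicate 1 of *SUP35 URA3* 5 of the 32 were called lower (676 of 5891 genes called), and without replicate 2 of *SUP35 LEU2* 6 were (702 of 5850). edgeR on the *SUP35* groups alone called 13 of the 32 (794 of 5812 genes called). There *MET22*, *MET32*, *MET5* and *STR3* were gained as lower and *MET6* was lost. The log2FC was negative for 30 of the 32 (27 with upper quartile scaling), with a median of -0.44 against 0.00 over all genes. The groups did not overlap for 18 of the 32, against 33.0% of all genes tested. The *SUP35 URA3* group had the highest mean of the 3 groups for 23 of the 32 genes (71.9%), against 33.0% of all genes tested.

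The largest difference was in *MET1* (YKR069W, chromosome XI, 571612 to 573393), whose product makes siroheme for sulfite reductase, with 300.3, 442, 365 and 507 CPM in *SUP35 LEU2* cultures, against 1473, 1437 and 1807 CPM in *SUP35 URA3* cultures (log2FC -1.96, standard error 0.45, adjusted p = 0.00692, edgeR). *MET10* (YFR030W, chromosome VI, 213312 to 216419), a subunit gene of that reductase, had 1062, 1493, 1274 and 1701 CPM against 3496, 3364 and 3366 CPM (log2FC -1.30, standard error 0.34, adjusted p = 0.0139, edgeR). *SUL2* had 256, 307, 242 and 349 CPM in *SUP35 LEU2* cultures, against 806, 715 and 619.7 CPM in *SUP35 URA3* cultures (log2FC -1.31, standard error 0.36, adjusted p = 0.0185, edgeR). The call of *SUL2* was lost without replicate 1 or 2 of *SUP35 URA3*. In all of these genes every *SUP35 LEU2* culture lay below every *SUP35 URA3* culture. *MET16* had 392, 443, 346 and 495 CPM against 915, 787 and 882 CPM (log2FC -1.04, standard error 0.30, adjusted p = 0.0212, edgeR), and the groups were again apart, although the call was lost without replicate 2 or 3 of *SUP35 LEU2* or replicate 1 of *SUP35 URA3*. The genes of sulfate activation were not called. *MET3* (log2FC -0.33, adjusted p = 0.617, edgeR) and *MET14* (log2FC -0.38, adjusted p = 0.501, edgeR) had overlapping groups, and whether their response differs from that of *MET10* or *MET1* was not tested.

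Further along the pathway, *MET13*, which codes for the main methylenetetrahydrofolate reductase, had 224, 190.5, 170.5 and 165 CPM in *SUP35 LEU2* cultures, against 392, 363 and 312 CPM in *SUP35 URA3* cultures (log2FC -0.92, standard error 0.12, adjusted p = 0.000171, edgeR). Its paralogue *MET12* had a log2FC of -0.03. *MET6* had 2807, 2942, 2762 and 3517 CPM in *SUP35 LEU2* cultures, against 5078, 4154 and 3605 CPM in *SUP35 URA3* cultures (log2FC -0.51, standard error 0.15, adjusted p = 0.0274, edgeR), just outside the limit of 0.5. *MET2*, for the enzyme that makes the homoserine ester, had 73.5, 86.6, 75.5 and 72.7 CPM against 142, 120.2 and 135 CPM (log2FC -0.78, standard error 0.24, adjusted p = 0.0324, edgeR), and the open reading frame YNL276C overlaps 25.9% of it on the other strand. Each of these 3 called genes was separate between the groups, but the calls of *MET6* and *MET2* were lost under 10 and 8 of the 17 alternatives run. *CYS4* (449, 499, 497 and 632 CPM against 904, 703 and 705 CPM) was also called lower (log2FC -0.57, standard error 0.15, adjusted p = 0.0165, edgeR), a call lost without replicate 1 or 2 of *SUP35 LEU2* or replicate 1 of *SUP35 URA3*.

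Permease genes for methionine and S-adenosylmethionine were lower as well. *MUP1* had 300.3, 282, 302 and 377 CPM in *SUP35 LEU2* cultures, against 621, 528 and 610.0 CPM in *SUP35 URA3* cultures (log2FC -0.90, standard error 0.16, adjusted p = 0.0015, edgeR). *SAM3* had 776, 742, 741 and 679 CPM against 1279.7, 1052 and 1062 CPM (log2FC -0.62, standard error 0.13, adjusted p = 0.00328, edgeR). Of the 10 genes called here, *MET1*, *MET10*, *MET13*, *MUP1* and *SAM3* kept the call in the 17 alternatives run for single genes. The other 22 genes ran from a log2FC of -1.06 for *MET32* (adjusted p = 0.0696, edgeR) to 0.21 for *SAM2*. CACGTG stood before 7 of the 10 called genes and before 21 of all 32.

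Against the initial strain, where allele, marker, medium and stage all differ, 3 of the 32 genes were called higher and 13 lower in *sup35-218* cultures, while 14.7% of all genes tested were called higher and 16.5% lower. The higher ones were *MET3*, *CYS3* and *CBF1*. The groups did not overlap for 15 of the 32, against 56.5% of all genes tested. The lower ones were *SUL2*, *MET16*, *MET22*, *MET10*, *MET1*, *MET2*, *MET6*, *MET13*, *STR2*, *STR3*, *SAM4*, *MUP1* and *MET28*. This comparison shares its cultures with the other 2 and is not independent of them. Without replicate 2 of *sup35-218* the counts were 7 higher and 6 lower, beside 1797 of 5894 genes in either direction. *SUL1*, *MET14*, *MET8* and *MET17* were then added to the higher ones. Without replicate 1 of *SUP35 URA3* 2 were higher and 8 lower, beside 1666 of 5891 genes. Without replicate 3 of *sup35-218* (1826 of 5892 genes called) or replicate 2 of *SUP35 URA3* (1747 of 5893) 1 of the 32 was higher.

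The sulfate branch held 5 of the 13 lower calls. *MET16* had 403, 135 and 521 CPM in *sup35-218* cultures, against 915, 787 and 882 CPM in *SUP35 URA3* cultures (log2FC -1.29, standard error 0.33, adjusted p = 0.00561, edgeR). *MET22* had 444, 213 and 482 CPM against 741, 596 and 638 CPM (log2FC -0.79, standard error 0.23, adjusted p = 0.0119, edgeR). *SUL2* had 267, 104 and 581 CPM against 806, 715 and 619.7 CPM (log2FC -1.17, standard error 0.40, adjusted p = 0.0269, edgeR). In these genes every *sup35-218* culture, replicate 3 included, lay below every *SUP35 URA3* culture. Without replicate 2 the differences were smaller, and *MET16* was called (log2FC -0.85, adjusted p = 0.00211, edgeR) while *MET22* (log2FC -0.45, adjusted p = 0.0277, edgeR) and *SUL2* (log2FC -0.69, adjusted p = 0.0504, edgeR) were not. The call of *SUL2* was lost in 5 of the 17 alternatives. *MET1* had 540.3, 151 and 1301 CPM in *sup35-218* cultures, against 1473, 1437 and 1807 CPM in *SUP35 URA3* cultures (log2FC -1.24, standard error 0.49, adjusted p = 0.0495, edgeR), and 13 of the 17 alternatives did not call it. *MET5*, the other subunit gene of sulfite reductase, had 656, 173 and 985 CPM in *sup35-218* cultures, 339.5, 416, 404 and 548 CPM in *SUP35 LEU2* cultures and 971, 730.4 and 847 CPM in *SUP35 URA3* cultures and was called in no comparison by edgeR's fit of all 3 groups. *MET3* was higher in *sup35-218* cultures than in *SUP35 URA3* cultures (430.1, 344 and 424 CPM), apart from replicate 2 (log2FC 1.43, standard error 0.48, adjusted p = 0.0264, edgeR), and 7 alternatives did not call it, among them DESeq2 and the fits without replicate 1 or 3 of *sup35-218* or without any 1 culture of *SUP35 URA3*.

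*MET6* had 3169, 2495 and 2881 CPM in *sup35-218* cultures, against 5078, 4154 and 3605 CPM in *SUP35 URA3* cultures (log2FC -0.59, standard error 0.17, adjusted p = 0.0109, edgeR), with no overlap. *MUP1* had 318, 292 and 481 CPM against 621, 528 and 610.0 CPM (log2FC -0.69, standard error 0.17, adjusted p = 0.00524, edgeR), also with no overlap. Without replicate 2 of *sup35-218* neither *MET6* (log2FC -0.45, adjusted p = 0.0739, edgeR) nor *MUP1* (log2FC -0.50, adjusted p = 0.0437, edgeR), just inside the limit of 0.5, was called, and *MET6* was also lost without replicate 1 of *SUP35 URA3*. *MET2* (59.4, 48.7 and 133 CPM against 142, 120.2 and 135 CPM) and *STR3* (181, 81.5 and 456 CPM against 508, 413 and 560.1 CPM) were called lower (-0.71 and -1.04 on the log2 scale, adjusted p = 0.0404 and 0.0439, edgeR), with replicate 3 of *sup35-218* inside the *SUP35 URA3* range. These calls were lost in 10 of the 17 alternatives for *MET2* and in 12 for *STR3*, among them the fit without replicate 2 (*MET2*, log2FC -0.40, adjusted p = 0.208, edgeR, and *STR3*, log2FC -0.58, adjusted p = 0.117, edgeR). The permease gene *MUP3* had 25.4, 18.7 and 55.9 CPM in *sup35-218* cultures, 48.7, 48.5, 43.9 and 51.3 CPM in *SUP35 LEU2* cultures and 62.6, 53.5 and 47.9 CPM in *SUP35 URA3* cultures. *YCT1* ran from 44.4 to 109 CPM in *sup35-218* cultures, from 40.6 to 104 CPM in *SUP35 LEU2* cultures and from 71.3 to 105 CPM in *SUP35 URA3* cultures. Neither was called by edgeR with all cultures, while DESeq2 called *MUP3* lower in *sup35-218* against *SUP35 URA3*, as did edgeR without replicate 3 (log2FC -1.27, adjusted p = 0.000115, edgeR).

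The comparisons divide the genes into kinds of profile. *MET13* had 179, 164 and 197 CPM in *sup35-218* cultures, close to the *SUP35 LEU2* cultures (log2FC -0.06, adjusted p = 0.728, edgeR) and below all *SUP35 URA3* cultures (log2FC -0.98, standard error 0.13, adjusted p = 4.77e-05, edgeR). *STR2* and *SAM4* were lower in *sup35-218* than in either *SUP35* group, with log2FC of -1.70 and -1.42 against *SUP35 URA3* (adjusted p = 1.99e-06 and 1.50e-05, edgeR). *CYS3* was higher in *sup35-218* than in either *SUP35* group, with 433, 400.1 and 400.1 CPM in *SUP35 URA3* cultures (log2FC 1.01, standard error 0.19, adjusted p = 0.000817, edgeR). Between the *SUP35* groups none of these was called, with log2FC of -0.35 for *STR2*, -0.31 for *SAM4* and -0.35 for *CYS3* (adjusted p = 0.0755, 0.144 and 0.166, edgeR). For *STR2* and *CYS3*, though not *SAM4*, every *SUP35 LEU2* culture lay below every *SUP35 URA3* culture. *SAM3* was not called between *sup35-218* and *SUP35 URA3* (log2FC -0.01, adjusted p = 0.962, edgeR), and the *SUP35 LEU2* cultures lay below both groups. *MET10* had 1787, 493 and 2230.0 CPM in *sup35-218* cultures, all below 3496, 3364 and 3366 CPM in *SUP35 URA3* cultures (log2FC -1.18, standard error 0.37, adjusted p = 0.0188, edgeR), and the difference was smaller without replicate 2 (log2FC -0.71, adjusted p = 0.0131, edgeR). By mean level, the order of groups was *SUP35 URA3*, *sup35-218*, *SUP35 LEU2* for 13 genes, *SUP35 URA3*, *SUP35 LEU2*, *sup35-218* for 10 genes, and *sup35-218*, *SUP35 URA3*, *SUP35 LEU2* for 7 genes.

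A further 31 genes that supply or use these compounds were read from the same fit. Against *SUP35 LEU2*, 7 were called higher and 3 lower in *sup35-218* cultures, or 32.3% of the list beside the 23.3% of all genes, with a median log2FC of 0.18. Against *SUP35 URA3* 2 were higher and 7 lower (29.0% of the list, beside 31.2% of all genes). Against *SUP35 LEU2* the highest were *MHT1* and *MMP1*, divergent neighbours on chromosome XII. They code for a methyltransferase and a permease that use S-methylmethionine as a methionine source. *MMP1* was not called against *SUP35 URA3* (log2FC 0.27, adjusted p = 0.553, edgeR). *MHT1* had 149, 41.3 and 201 CPM in *sup35-218* cultures, against 32.4, 34.6, 36.4 and 51.9 CPM in *SUP35 LEU2* cultures (log2FC 1.75, standard error 0.36, adjusted p = 0.00183, edgeR). *MMP1* had 238, 93.7 and 377 CPM against 55.1, 69.0, 63.7 and 107 CPM (log2FC 1.68, standard error 0.34, adjusted p = 0.00164, edgeR). In both, replicate 2 was the lowest *sup35-218* culture and fell within the *SUP35 LEU2* range. The alkyl sulfatase gene *BDS1* (log2FC 1.15, adjusted p = 0.00341, edgeR) and the glutathione degradation gene *DUG3* (log2FC 1.06, adjusted p = 0.00579, edgeR) were also higher.

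The largest fall of this list was in *SSU1*, for the plasma membrane sulfite exporter, with 130.1, 173 and 103 CPM in *sup35-218* cultures, against 466, 396, 422 and 284 CPM in *SUP35 LEU2* cultures (log2FC -1.53, standard error 0.19, adjusted p = 5.31e-05, edgeR), with no overlap. *HOM2*, on the way from aspartate to homoserine, was lower (log2FC -0.78, adjusted p = 0.000329, edgeR), as was the glutathione breakdown gene *ECM38* (log2FC -0.61, adjusted p = 0.000837, edgeR). The glutathione synthesis genes *GSH1* (log2FC -0.06, adjusted p = 0.814, edgeR) and *GSH2* (log2FC -0.09, adjusted p = 0.499, edgeR) were not called. Genes of methionine salvage did not pass, with 0 of 6 called by edgeR in this comparison.

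Between the *SUP35* groups 1 of the 31 genes was called higher in *SUP35 LEU2* cultures, the thioredoxin gene *TRX1* (log2FC 0.61, adjusted p = 0.00691, edgeR), and 5 were called lower (19.4% of the list, beside 13.8% of all genes). The largest of these was *MMP1*, with 55.1, 69.0, 63.7 and 107 CPM in *SUP35 LEU2* cultures, against 227, 195 and 165 CPM in *SUP35 URA3* cultures (log2FC -1.41, standard error 0.34, adjusted p = 0.00871, edgeR). The sulfur compound transporter gene *SOA1* (log2FC -0.95, adjusted p = 0.00322, edgeR), the glutathione transporter gene *OPT1* (log2FC -0.91, adjusted p = 0.00156, edgeR) and *IRC7* (log2FC -0.85, adjusted p = 0.000796, edgeR), whose product releases sulfide from cysteine, were lower too, as was *SSU1* (log2FC -0.61, adjusted p = 0.0219, edgeR). Of the partners of Met30 in its ubiquitin ligase, *SKP1*, *CDC53* and *CDC34*, none was called between the *SUP35* groups. Nor was any called in cultures with the nonsense allele against *SUP35 LEU2* cultures, where the groups did not overlap for any of them. There *CDC53* (log2FC -0.48, adjusted p = 0.00111, edgeR) and *CDC34* (log2FC 0.46, adjusted p = 0.00163, edgeR) missed only the limit of 0.5. Against *SUP35 URA3*, *CDC53* was called lower in cultures with the nonsense allele (log2FC -0.59, adjusted p = 0.000281, edgeR), with no overlap.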

How the data were processed

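RNA of 10 cultures was sequenced by the authors from directional libraries in paired-end mode. Per the labels and the methods of the study, reads were trimmed with Trimmomatic, aligned to the S288C genome (R64-3-1) with HISAT2 and counted with featureCounts. The authors deposited raw counts per gene, without normalization, and all per-sample columns were used. All 32 genes matched the RefSeq R64 annotation by systematic name, with the same start and end.

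Counts were tested with edgeR (version 4.0.16, R 4.3.3) by the quasi-likelihood method in 1 fit of 3 groups, after TMM normalization and filterByExpr (minimum count 10). P-values were adjusted by Benjamini-Hochberg over all 5856 genes tested. Errors are SD between cultures or standard errors. The latter were derived as the size of the log2FC over the square root of its quasi-likelihood F statistic. Alternatives were DESeq2 (version 1.42.0), other size factors, filters and sample sets, a replicate block, glmTreat and leaving out each culture. Data were also simulated for the comparison of *sup35-218* with *SUP35 LEU2* (5834 genes). There 87.8% of planted changes of 0.75 on the log2 scale and 100% of those of 1 were recovered, with 5 false calls of 198. The genes described here varied more, with a median SD of 0.565 on the log2 scale between *sup35-218* cultures, against 0.131 over all genes. Recovery at such spread was not measured separately. *SUL1*, with a fitted log2FC of 0.75 (standard error 0.43, adjusted p = 0.182, edgeR), was not called.

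The genes and lists were chosen with earlier results of these data known, and named genes are all 32, with at most 4 of the further genes per direction. Counting error sets the limit for genes of few counts.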

Additional observations from a re-analysis of the deposited data

Results flagged for a closer look

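Among the *SUP35 LEU2* cultures, the only group of 4, *MET28* stood at 4.48 CPM in replicate 1, against 2.14 to 2.52 CPM in the other 3. The gap to the nearest culture was 0.837 of the whole range. It rests on 17 counts in replicate 1. Such gaps were found for 4.44% of all 5856 genes tested in this group, about the 5% that chance gives, and for 1 of the 32 genes described here.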

How the results depend on the processing

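Each value of the 32 genes was recomputed under 17 alternatives, 10 of which left out a culture. Of 1628 such values, 1494 kept their side of the threshold, 93 lost a call and 41 gained one. No called value changed sign, while values that were not called changed sign 64 times, in 23 of the 32 genes. Calls present in all of these where the gene was tested were those of *MET3*, *CYS3*, *SAM3*, *STR2* and *SAM4* in *sup35-218* against *SUP35 LEU2*, of *MET1*, *MET10*, *MET13*, *MUP1* and *SAM3* between the *SUP35* groups, and of *CYS3*, *STR2*, *SAM4*, *MET10*, *MET13*, *MET16* and *MET28* in *sup35-218* against *SUP35 URA3*. Against *SUP35 LEU2*, DESeq2 called 3 genes higher and edgeR's glmTreat test against a log2FC of 0.5 called 2, where the main count was 5. Against *SUP35 URA3*, glmTreat left 1 of 3 higher and 5 of 13 lower, and between the *SUP35* groups it left 1 of 10 lower. This test asks for a difference beyond the limit, which by its construction calls fewer genes. Over all 5856 genes it called 461, 778 and 127 in either direction, in the order of these comparisons. It was run for counts alone and is not among the 17. With a culture left out, counts in *sup35-218* against *SUP35 LEU2* ran from 3 to 13 higher (fewest without replicate 3 and most without replicate 2 of *sup35-218*) and from 2 to 5 lower (fewest without replicate 2 of *sup35-218* or replicate 1 of *SUP35 LEU2*, and most without replicate 3 of *sup35-218*). Against *SUP35 URA3* they ran from 1 to 7 higher (fewest without replicate 3 of *sup35-218* or replicate 2 of *SUP35 URA3*, most without replicate 2 of *sup35-218*) and from 6 to 15 lower (fewest without replicate 2 and most without replicate 3 of *sup35-218*, and 8 without replicate 1 of *SUP35 URA3*). Between the *SUP35* groups 5 to 13 were lower (5 without replicate 1 of *SUP35 URA3*, 6 without replicate 2 of *SUP35 LEU2*, and most without replicate 2 of *sup35-218*, a culture of neither group, whose removal changes the shared spread, the filter and the scaling) and 0 higher. Cultures of different groups share only a replicate number. Residuals of same-numbered *sup35-218* and *SUP35 LEU2* cultures had r of 0.02, 0.11 and 0.19, and those of the *SUP35* groups 0.41, -0.01 and -0.19, and not every culture correlated best with its own number. A fit with replicate block gave the 32 genes 5 higher and 3 lower calls against *SUP35 LEU2* (*MET8* lost and *CBF1* gained), 2 and 13 against *SUP35 URA3*, and 0 and 10 between the *SUP35* groups. *MET28* had 3 to 29 counts per culture, and whether depth or the overlap with YIR017W-A limits them was not tested.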

Other observations

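Of the 28 genes at least 2-fold lower in replicate 2 than in both other *sup35-218* cultures, 13 were among the 32 genes above and 3 (*MHT1*, *MMP1* and *BDS1*) among the further sulfur genes. The other 12, named after their values were seen, were *SEO1*, YPR204W, YOL163W, *RAD59*, *FMO1*, *SER33*, *GRX8*, YOL162W, YKL202W, *BNA3*, *MXR1* and *AGP3*. *SEO1*, a gene of the allantoate permease family, had 66.2, 9.90 and 104 CPM in replicates 1, 2 and 3. *SER33*, coding for an enzyme of serine synthesis, had 787, 264 and 1072 CPM in replicates 1, 2 and 3. *MXR1*, coding for a methionine sulfoxide reductase, had 421, 157 and 468 CPM in replicates 1, 2 and 3, and *GRX8*, a glutaredoxin gene, had 167, 45.8 and 150.3 CPM in replicates 1, 2 and 3. In the *SUP35* cultures the number of genes at least 2-fold below all others of the group was at most 10, in replicate 3 of *SUP35 URA3*, with none of the 32 among them.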
